A study of Homo sapiens with 54 samples.

Results

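The genes described here are the 9 that make, pack, take up or break down dopamine and its relative noradrenaline. They were found by symbol in the deposited table of every library, which lists 60676 genes. TH and DDC make dopamine, DBH turns it into noradrenaline, SLC18A2 loads it into vesicles, SLC6A3, SLC6A2 and SLC22A3 carry it across the cell membrane, and MAOA and MAOB break it down. RNA was sequenced from hMSN-like cells, neurons of the striatal type differentiated with activin A from H9, an established line of human embryonic stem cells, so the cultures represent 1 line. The data comprised 53 libraries of 18 groups in 4 experiments.

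In the 1 mM and the 1 µM experiment, cultures received dopamine acutely, for 1 h once, or chronically, for 1 h on each of 5 days. The groups are named for the regimen and for the wait of 1 h or 24 h before RNA was taken (for example Acute 24 h), and each dose had its own PBS cultures. By the study's methods dopamine was dissolved in ascorbic acid, and the labels name none for the PBS cultures. Against PBS, dopamine and ascorbic acid therefore cannot be told apart. Per the study's methods, acutely dosed cultures were younger at collection than chronically dosed ones, and the labels do not give the age of the PBS cultures, so age and regimen cannot be told apart. In the time course, cultures received 1 mM dopamine daily for 2, 3, 4 or 5 days (2 Day to 5 Day), and AA cultures received the ascorbic acid vehicle. In the agonist experiment, cultures received water or, each at 50 µM, the D1-like receptor agonist SKF82958 or the D2-like receptor agonist quinpirole. Every group held 3 libraries, except 5 Day with 2, since replicate 1 was not analysed here.

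Dopamine is made in a pair of steps. Tyrosine hydroxylase, encoded by TH, turns tyrosine into L-DOPA and is the rate-limiting enzyme, and aromatic L-amino acid decarboxylase, encoded by DDC, turns L-DOPA into dopamine. In the brain this takes place mainly in midbrain neurons whose axons reach the striatum. Medium spiny neurons, the main neurons of the striatum, receive dopamine through receptors and are not its usual source. Released dopamine is taken up by the dopamine transporter (SLC6A3) or carriers of lower affinity, and monoamine oxidases on the outer membrane of mitochondria oxidise it.

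Exon reads per library ranged from 5755919 to 27702963 in 52 libraries. Quinpirole replicate 1 stood apart, with 137051 exon reads and 96.7% of its 4121674 gene reads in introns, against 12.3% to 31.2% in the others. Its TPM values rest on very few reads (a single MAOB read gave a TPM of 11.1), so levels are given without it and fold changes with quinpirole with and without it. Among markers of striatal neurons, 10 of 10 had a median TPM above 1, led by BCL11B at 44.6, and the neuronal gene MAP2 had a median of 460. Markers of other cells were present too, with the choroid plexus gene TTR at a median of 1612, SOX2 of progenitors at 505 and SLC1A3 of astrocytes at 83.6. Of 8 markers of dopaminergic neurons, 4 had a median above 1 (LMX1A, NR4A2, KCNJ6 and EN2), whereas PITX3 had no exon read in 47 and EN1 in 27 of 52 libraries. In such bulk samples, fewer cells of a type and less RNA per cell cannot be told apart.

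Levels are given as TPM, in which exon reads are divided by exon length, so that they can be compared between genes. By the study's methods, Hi-seq and NovaSeq instruments were used, and the sources used here do not say which served which library. Time course cultures were collected at the age of the chronic cultures, and agonist cultures at that of the acute ones. The median mitochondrial share of TPM was 11.9% in the 1 mM experiment, 24.2% at 1 µM, 28.6% in the time course and 29.6% with the agonists. What these add to differences in level between experiments was not tested. MAOA was the most abundant of the 9 genes, with a median of 9.19 (range 4.15 to 15.2). TH followed with a median of 2.95 (0 to 8.47), then DBH with 1.02 (0 to 3.04) and MAOB with 0.759 (0 to 3.78). The other 5 genes were lower, with medians of 0.353 for DDC, 0.278 for SLC6A3, 0.207 for SLC18A2, 0.105 for SLC22A3 and 0 for SLC6A2. The ranges of all neighbours in this order overlapped. Depending on the library, 3 exon reads corresponded to a TPM of 0.128 to 0.589 for TH and 0.0929 to 0.427 for SLC6A3, and a level below such a floor was not distinguishable from none at this depth, which covers counting error only.

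**Figure D1:**
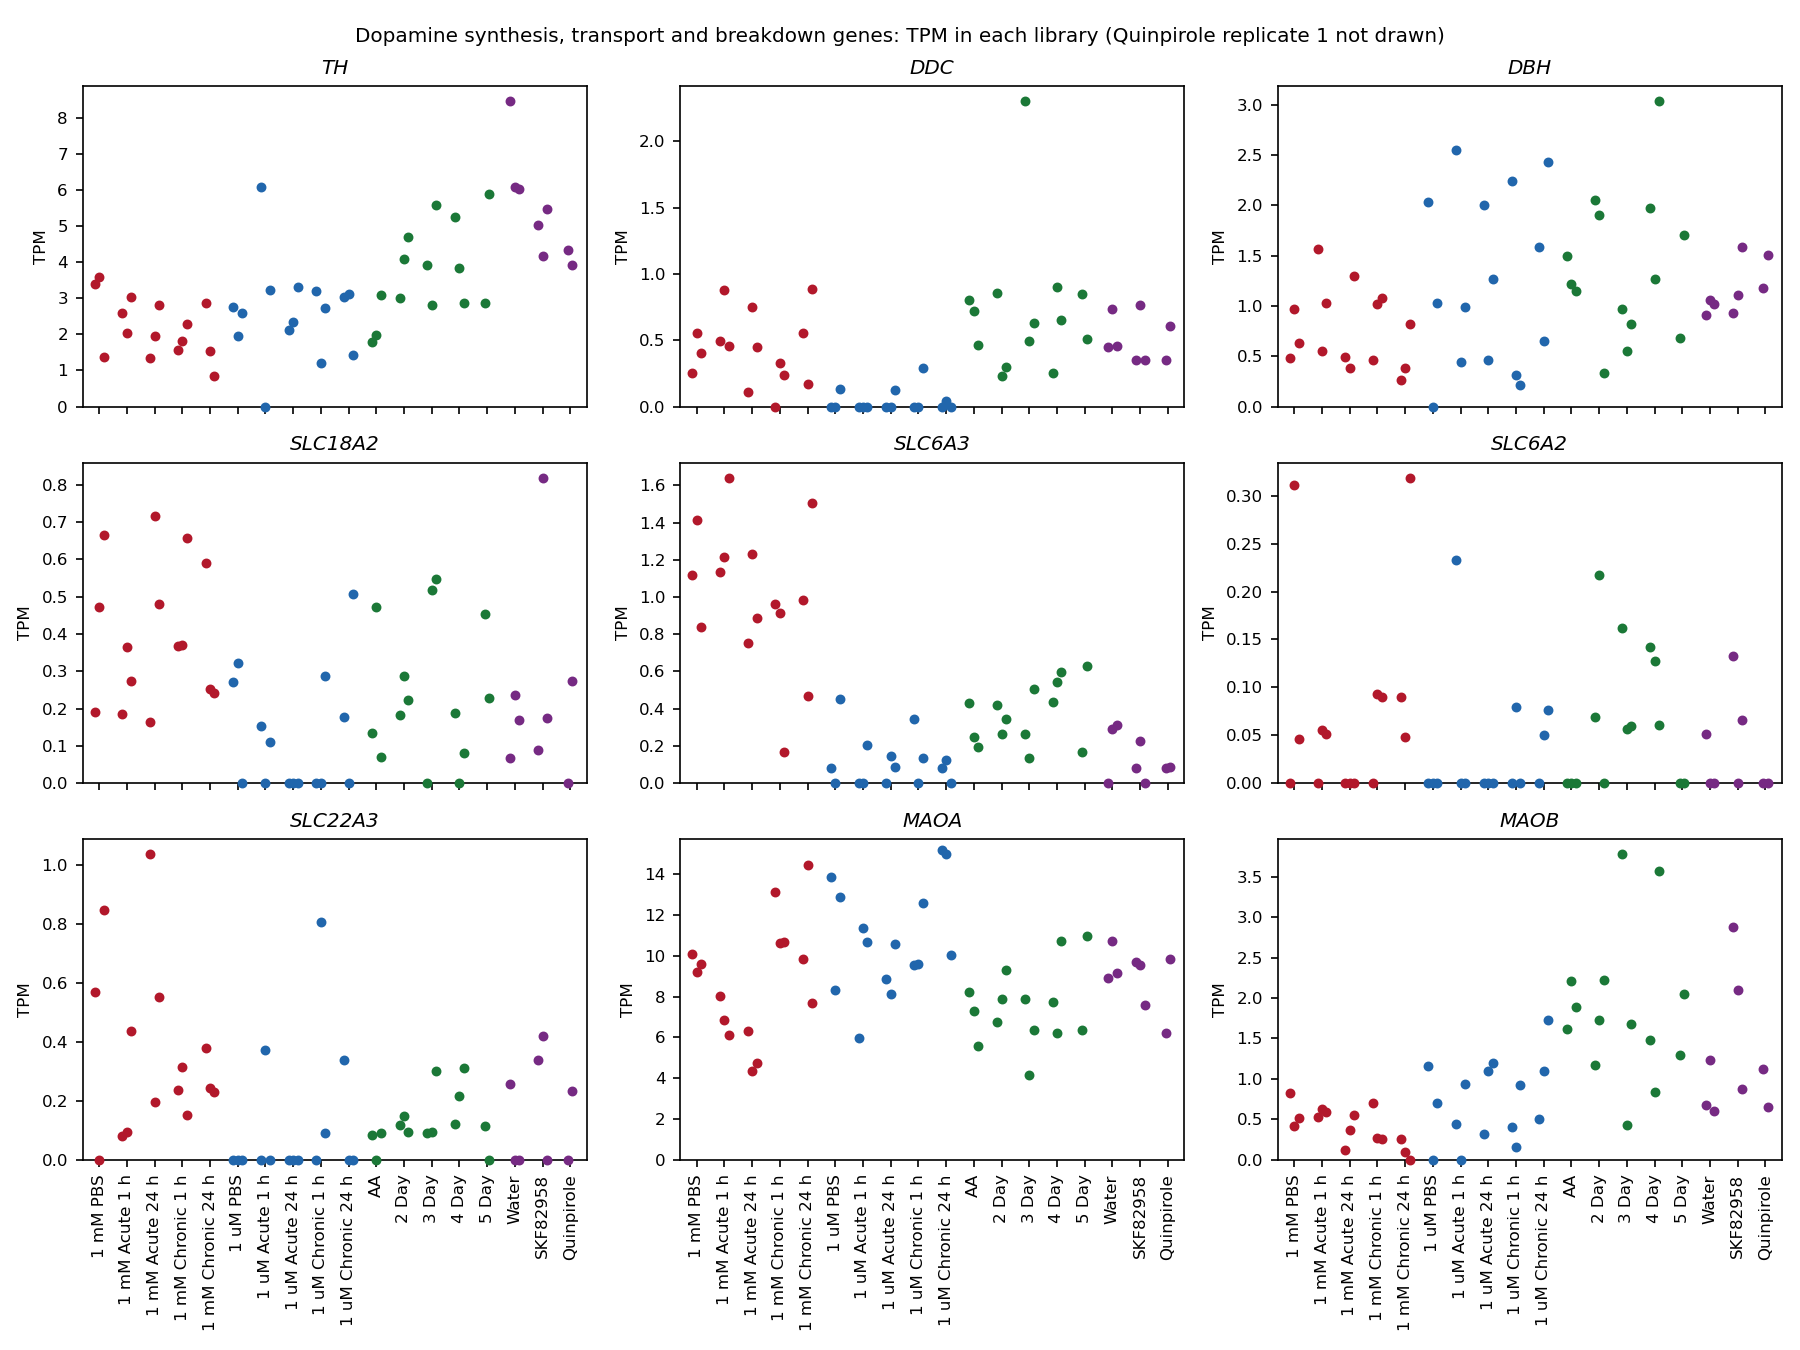
TPM of the 9 genes (y axes, each with its own scale from 0) in the 18 groups (x axis), with 1 point per library and 1 colour per experiment. MAOA lies between 4.15 and 15.2 in all 52 libraries drawn, whereas SLC6A2 does not exceed 0.319 in any.

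Reads on the 9 genes differed in kind as well as in number. The deposited tables separate exon reads, the exon reads that span an exon junction (which come from spliced RNA) and intron reads. Over the 52 libraries, MAOA gathered 8621 exon reads, of which 51.2% spanned a junction, and TH 1747, of which 68.0% did. DDC had 222 exon reads with 76.1% across junctions, MAOB 494 with 64.6%, SLC6A3 378 with 46.6% and SLC18A2 188 with 45.2%. DBH stood apart, since only 11 of its 496 exon reads (2.22%) spanned a junction. For SLC6A2 it was 3 of 50 exon reads, and for SLC22A3 30 of 110. Introns held 92.3% of all SLC18A2 reads, 89.4% of those of SLC22A3 and 86.3% of those of SLC6A2, against 14.6% for MAOA and 20.2% for TH.

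**Figure D2:**
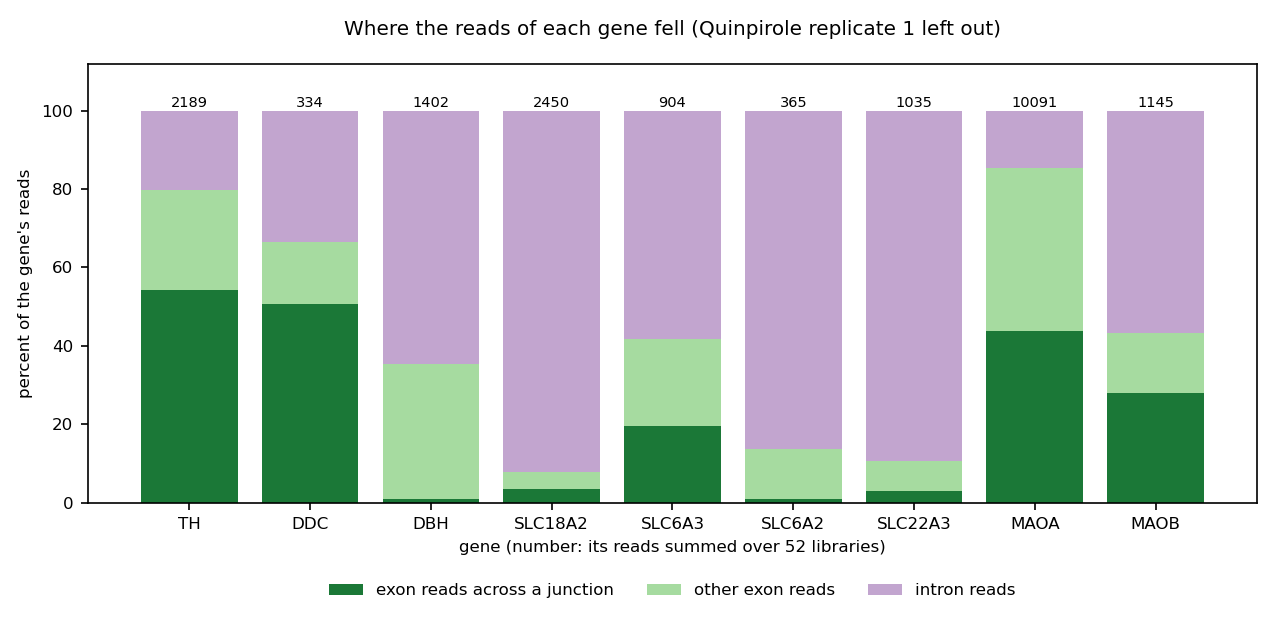
Percent of each gene's reads (y axis) that spanned an exon junction, lay elsewhere in exons or lay in introns, summed over 52 libraries. Introns make up 14.6% of the reads of MAOA and 92.3% of those of SLC18A2, and junction reads are hardly seen for DBH and SLC6A2.

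Several of these genes lie over other genes, which bears on what their reads can say, since the strand setting of the counting is not given in the sources used here. DBH (ENSG00000123454, chr9:133636363-133659329, plus strand, GRCh38) covers DBH-AS1, a long noncoding RNA on the opposite strand (chr9:133654586-133657313) with a median of 19 exon reads, against 9 for DBH itself. SLC18A2 (ENSG00000165646, chr10:117241093-117279430, plus strand) overlaps at its far end PDZD8 on the opposite strand, with a median of 943 exon reads. DDC (ENSG00000132437, chr7:50458436-50565405, minus strand) overlaps FIGNL1 on the same strand, with a median of 250. Where such genes overlap, these tables cannot tell their reads apart. TH (ENSG00000180176, chr11:2163929-2171877, minus strand), SLC6A3 (ENSG00000142319, chr5:1392794-1445440, minus strand), MAOA (ENSG00000189221, chrX:43654907-43746824, plus strand) and MAOB (ENSG00000069535, chrX:43766610-43882450, minus strand) overlap no other gene of the tables. MAOA and MAOB are neighbours on the X chromosome and lie tail to tail.

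Whether dopamine or its agonists changed these genes was asked by comparing exon reads with edgeR's quasi-likelihood test, fitted over all genes of an experiment, with Benjamini-Hochberg adjustment over all genes tested in a comparison. A gene passed at an adjusted p-value under 0.05, and changes are log2(fold change) of exon reads with standard errors (SE). Low counts limited the tests to TH, DBH, SLC18A2, SLC6A3 and MAOA in the 1 mM experiment, to TH, DBH and MAOA in the 1 µM experiment, and to TH, DBH, MAOA and MAOB in the other 2. DDC, SLC6A2 and SLC22A3 had too few exon reads in every experiment. Of 68 tests between groups 1 passed, that of MAOA at 1 mM Acute 24 h.

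At 1 mM, 1 of 5 genes tested passed at Acute 24 h against PBS, where 15.5% of 17804 genes passed and 7.09% were lower. At Acute 1 h 0 of 5 passed, against 16% of all genes, at Chronic 1 h 0, against 2.08%, and at Chronic 24 h 0, against 0.663%, with 0 at an unadjusted p under 0.05 in these 3. From Acute 1 h to Chronic 1 h, 0 of 5 passed by edgeR, against 11.3%, with 1 at an unadjusted p under 0.05, and 1 passed by DESeq2, against 15.5% of all genes by that tool. At 1 µM, 0 of 3 passed in any comparison, with 0 at an unadjusted p under 0.05, against 5.77% (Acute 1 h), 3.31% (Acute 24 h), 2.58% (Chronic 1 h), 0% (Chronic 24 h) and 1.2% (Chronic 1 h against Acute 1 h). In the time course 0 of 4 passed, against 3.88% at 2 Day, 7.37% at 3 Day, 4.38% at 4 Day and 1.63% at 5 Day, with TH at an unadjusted p under 0.05 on each day, and 0 passed from 3 Day to 5 Day, against 1.16%, with 0 at an unadjusted p under 0.05. With the agonists 0 of 4 passed, against 0.0124% for SKF82958 and 0% for quinpirole, with 0 at an unadjusted p under 0.05. Both agonist comparisons share a fit that includes Quinpirole replicate 1, so that library also enters the spread used for SKF82958. Except where stated, DESeq2 gave the same counts.

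The difference between the doses was tested by an interaction term, the change against PBS at 1 mM minus that at 1 µM, for TH, DBH, SLC6A3, MAOA and MAOB. Of these 5 genes 0 passed by edgeR or DESeq2 at any of the 4 regimens, against 2.01% of all genes at Acute 1 h, 0.663% at Acute 24 h, 0.087% at Chronic 1 h and 0.0109% at Chronic 24 h. There were 2 values with an unadjusted p under 0.05. They were MAOA at Acute 24 h (-0.68, SE 0.332, adjusted p = 0.362) and MAOB at Chronic 24 h (-3.15, SE 1.31, adjusted p = 0.627), the latter from 0 to 23 MAOB exon reads per library.

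TH was detected in nearly all cultures. It had at least 10 exon reads in 50 of 53 libraries, and none in Quinpirole replicate 1 and in 1 µM Acute 1 h replicate 2. In the 1 mM experiment the PBS libraries had a TPM of 3.41, 3.60 and 1.38. Those of Acute 1 h had 2.58, 2.05 and 3.04, and those of Acute 24 h 1.34, 1.95 and 2.82. Chronic 1 h libraries had 1.56, 1.81 and 2.28, and Chronic 24 h libraries 2.86, 1.53 and 0.844. All groups overlapped PBS, and the log2(fold change) lay between -0.70 and -0.06 with SE of 0.437 to 0.446. At 1 µM it lay between -0.02 and 0.26 with SE of 0.790 to 0.808, where the Acute 1 h libraries alone spread from 0 to 6.08.

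In the time course TH was higher in most dosed libraries than in vehicle, without passing the adjusted threshold. The AA libraries had a TPM of 1.78, 1.97 and 3.10. The 2 Day libraries had 3.01, 4.10 and 4.71, and those of 3 Day 3.92, 2.83 and 5.58. After 4 days the values were 5.27, 3.86 and 2.88, and after 5 days 2.88 and 5.89. Of the 11 dosed libraries, 7 exceeded every AA library, and every dosed group overlapped AA. A complete separation, which TH did not show, held in that direction for 1.11% of all genes with a mean of at least 10 exon reads. The share of genes with a partial split like that of TH was not counted. The log2(fold change) against AA was 0.93 at 2 Day (SE 0.321, adjusted p = 0.117), 0.93 at 3 Day (SE 0.322, adjusted p = 0.0901), 0.82 at 4 Day (SE 0.327, adjusted p = 0.166) and 1.04 at 5 Day (SE 0.356, adjusted p = 0.165), all by edgeR. These comparisons share the AA libraries, so their values are not independent of each other. The change from 3 Day to 5 Day was 0.11 (SE 0.342).

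With no filter on low counts, TH passed at 2 Day, 3 Day and 5 Day (adjusted p = 0.0315, 0.0231 and 0.0459, edgeR), against 4.69%, 6.35% and 2.96% of all genes. The summed TPM of the 8 markers of dopaminergic neurons was 53.6 to 64.7 in AA and 42.3 to 57.4 over the dosed groups. This sum rests mostly on LMX1A and NR4A2, with medians of 23.5 and 21.1 over 52 libraries, and KCNJ6 came next at 5.72. For 5 mesenchymal markers the summed TPM was 167 to 223 in AA and 214 to 443 over the dosed groups. The summed TPM of 4 markers of cycling progenitors was 1292 to 1362 in AA and 934 to 1265 over the dosed groups. That of 10 markers of striatal neurons was 136 to 145 and 86.5 to 134. Both sums were below every AA library in every dosed library, as were 5.25% of all genes with a mean of at least 10 exon reads. The part of these marker sums in the values of TH was not tested.

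TH was at its highest in the Water controls of the agonist experiment. Their TPM was 8.47, 6.08 and 6.02 from 99, 61 and 56 exon reads. SKF82958 cultures had 5.04, 4.17 and 5.47, all below Water (log2(fold change) -0.57, SE 0.394, adjusted p = 1.00, edgeR). For SKF82958, fits without 1 library of the agonist experiment gave -0.68 to -0.38 (adjusted p of 0.386 or higher, edgeR). Quinpirole replicates 2 and 3 had 4.34 and 3.94, also below Water, and replicate 1 had no TH read among its few exon reads. For quinpirole the log2(fold change) of TH was -0.78 (SE 0.432, adjusted p = 0.989, edgeR), and without replicate 1 it was -0.69 (SE 0.245, adjusted p = 0.629, edgeR), where the unadjusted p was 0.0138. Leaving out any 1 library gave -1.10 to -0.62. Among all genes with a mean of at least 10 exon reads, 2.14% were lower in every SKF82958 library than in every Water library, and 4.67% were so with quinpirole, or 7.30% without its replicate 1. The summed TPM of the dopaminergic markers, which rests mostly on LMX1A and NR4A2, was 45.5 to 59.9 in Water. It was 77.7 to 86.7 with SKF82958 and 75.3 to 75.7 in quinpirole replicates 2 and 3. In the dose experiments the same sum was higher at Acute 1 h than in PBS. It was 73.1 to 85.7 against 56.5 to 62.5 at 1 mM, and 57.2 to 75.7 against 39.3 to 53.3 at 1 µM. At Chronic 1 h it was 39.9 to 41.4 at 1 mM and 25.0 to 41.3 at 1 µM. Whether this sum follows the number of dopaminergic neurons was not tested.

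**Figure D3:**
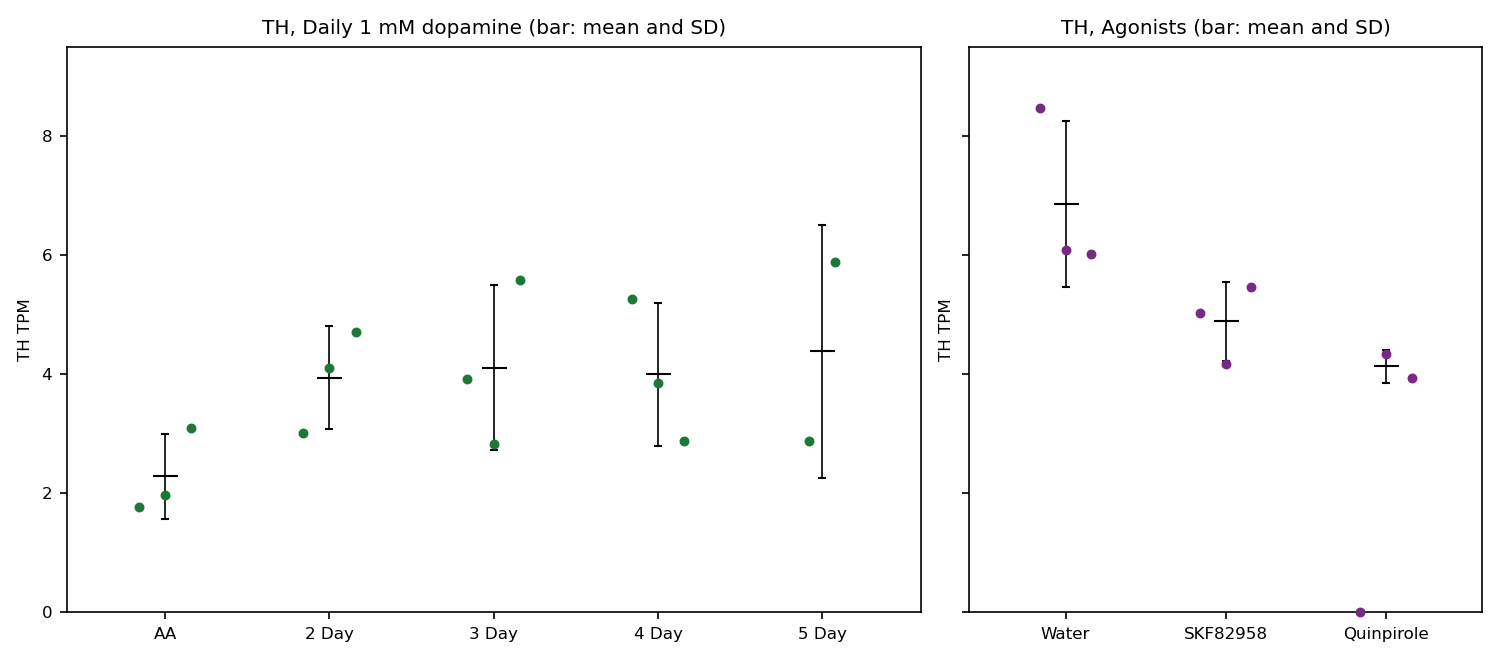
TPM of TH (y axis) in each library of the time course (left) and of the agonist experiment (right), with the mean and SD of each group. The 11 libraries dosed with dopamine lie at 2.83 to 5.89 and overlap the AA libraries, which lie at 1.78, 1.97 and 3.10. The Water libraries lie above all others drawn. The point at 0 is Quinpirole replicate 1, which is left out of the mean and SD of its group.

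DDC, the second enzyme of dopamine synthesis, was close to the limit of detection. It had at most 24 exon reads in a library (3 Day replicate 1, TPM 2.30) and at most 3 in 26 of 52 libraries. In the 1 µM experiment it had no exon read in 11 of 15 libraries and 6 in all, against 81 in the 15 libraries of the 1 mM experiment and 98 in the 14 of the time course. TH in contrast had 362, 428 and 534 exon reads in these 3 experiments. The PBS cultures of the dose experiments already differed in DDC, with 15 exon reads over 3 libraries at 1 mM (TPM 0.256 to 0.551) and 1 at 1 µM (TPM 0 to 0.131). The experiments were separate sets of cultures, and what set them apart was not tested.

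DBH, which converts dopamine to noradrenaline, passed in none of 17 comparisons. Its exon reads ranged from 0 to 25 with a median of 9, and its log2(fold change) ran from -0.61 to 0.73 with SE of 0.378 to 1.12 (lowest adjusted p = 0.440, edgeR). These are the reads that hardly ever spanned a junction.

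SLC18A2, the vesicular monoamine transporter, had 0 to 14 exon reads per library but 11 to 95 intron reads. In the 1 mM experiment its exon reads numbered 2 to 14, and its log2(fold change) in 5 comparisons ran from -0.64 to 0.66 (lowest adjusted p = 0.527, edgeR). The 1 µM experiment gave 20 exon reads over 15 libraries, 8 of which had none. Intron reads were likewise most numerous in the 1 mM experiment, at 49 to 95, against 11 to 41 at 1 µM, 23 to 50 in the time course and 22 to 41 in the agonist libraries. The libraries of the 1 mM experiment were also the deepest, with a median of 16567508 exon reads against 9660287 at 1 µM, and scaled to the gene reads of each library (CPM) the medians lay closer together. They were 3.59 CPM in the 1 mM experiment, 2.50 at 1 µM, 2.49 in the time course and 2.98 in the agonist libraries, with overlapping ranges.

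Among the membrane transporters, SLC6A3 had enough exon reads for a test between groups in the 1 mM experiment alone. It had 3 to 27 exon reads there (median 18), against 0 to 5 at 1 µM, 2 to 9 in the time course and 0 to 4 in the agonist libraries. The median TPM was 0.984, against 0.0833, 0.382 and 0.0827. This held in the PBS cultures as well, since the 1 mM PBS libraries had 1.12, 1.41 and 0.837 and those at 1 µM 0.0833, 0 and 0.451. Within the 1 mM experiment, the log2(fold change) against PBS ran from -0.76 to 0.31. From Acute 1 h to Chronic 1 h it was -1.07 (SE 0.517, adjusted p = 0.204, edgeR), with Acute 1 h libraries at a TPM of 1.14, 1.22 and 1.64 and Chronic 1 h libraries at 0.963, 0.912 and 0.166. These groups did not overlap, as was so in that direction for 18.6% of all genes with a mean of at least 10 exon reads.

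SLC6A2, the noradrenaline transporter (ENSG00000103546, chr16:55655604-55706192, plus strand), had no exon read in 28 of 52 libraries and at most 7. SLC22A3, an organic cation transporter of low affinity (ENSG00000146477, chr6:160348378-160452577, plus strand), had none in 18 and at most 11, in 1 mM PBS replicate 3. Exon reads of both were too few for a test.

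MAOA, the isoform of monoamine oxidase that prefers serotonin and noradrenaline, fell 24 h after a single 1 mM dose. The 3 PBS libraries had a TPM of 10.1, 9.23 and 9.61 from 212, 210 and 213 exon reads. The 3 Acute 24 h libraries had 6.31, 4.36 and 4.74 from 104, 114 and 132 reads, so that every dosed library lay below every PBS library, as was so for 11.7% of all genes with a mean of at least 10 exon reads. The mean fell from 9.65 ± 0.437 to 5.14 ± 1.03 (SD, n = 3 in each group), with a log2(fold change) at -1.04 (SE 0.209, adjusted p = 0.00946, edgeR). It also met the study's stricter rule for differentially expressed genes, a change of 1 or more on the log2 scale and a mean TPM of 1 or more in either group, which 3.7% of all genes met.

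MAOA was intermediate 1 h after the single 1 mM dose. The Acute 1 h libraries had a TPM of 8.03, 6.83 and 6.12, again all below PBS, as was so for 30.9% of all genes. The log2(fold change) of -0.40 (SE 0.206) did not pass (adjusted p = 0.206, edgeR). When only the 2 groups compared entered the fit, MAOA passed at Acute 1 h (adjusted p = 0.0148, edgeR), where 45.5% of all genes did, and not at Acute 24 h (adjusted p = 0.0819, edgeR), where 0% did.

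After chronic dosing at 1 mM, MAOA was near or above the level of PBS. The Chronic 1 h libraries had a TPM of 13.1, 10.6 and 10.7, each above the highest PBS library, as was so for 26.5% of all genes (log2(fold change) 0.21, SE 0.202, adjusted p = 0.682, edgeR). The Chronic 24 h libraries spread more widely, at 9.85, 14.5 and 7.70, and overlapped PBS (0.12, SE 0.202). Chronic 1 h set against Acute 1 h gave 0.61 (SE 0.205) with no overlap between the groups, as for 37.4% of all genes in that direction, which missed the threshold by edgeR (adjusted p = 0.0723) and met it by DESeq2 (adjusted p = 0.0380).

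Other measures also differed between the groups of the 1 mM experiment, and their part in the level of MAOA was not tested. Introns held 19.5% to 21.8% of gene reads in PBS, 12.3% to 13.2% at Acute 1 h, 12.5% to 15.9% at Acute 24 h and 18.9% to 22.4% in the chronic groups. The summed TPM of 4 markers of cycling progenitors was 1205 to 1281 in PBS, 1315 to 1387 at Acute 1 h, 1331 to 1375 at Acute 24 h, 1057 to 1146 at Chronic 1 h and 1036 to 1142 at Chronic 24 h. It thus lay above PBS in every acute library and below PBS in every chronic library. Of all genes with a mean of at least 10 exon reads, 24.2% lay above PBS without overlap at Acute 1 h and 26.2% at Acute 24 h. Below PBS without overlap lay 16.0% at Chronic 1 h and 10.8% at Chronic 24 h. The summed TPM of 4 neuronal markers was 2999 to 3420 in PBS, 2740 to 3025 at Acute 1 h, 1469 to 2771 at Acute 24 h, 2919 to 3112 at Chronic 1 h and 3021 to 3303 at Chronic 24 h. The 5 astrocyte markers summed to 115 to 151 in PBS, 106 to 111 at Acute 1 h, 118 to 140 at Acute 24 h, 194 to 206 at Chronic 1 h and 152 to 201 at Chronic 24 h. The 3 markers of choroid plexus spread from 535 to 2740 within PBS and were at 359 to 1247 at Acute 1 h, 233 to 752 at Acute 24 h, 341 to 764 at Chronic 1 h and 864 to 948 at Chronic 24 h. Acute 24 h replicate 1 had a share of TPM on mitochondrial genes of 3.90%, against 10.8% to 14.6% in the other 14 libraries of that experiment, and without it the log2(fold change) of MAOA was -1.13 (adjusted p = 0.00282, edgeR).

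**Figure D4:**
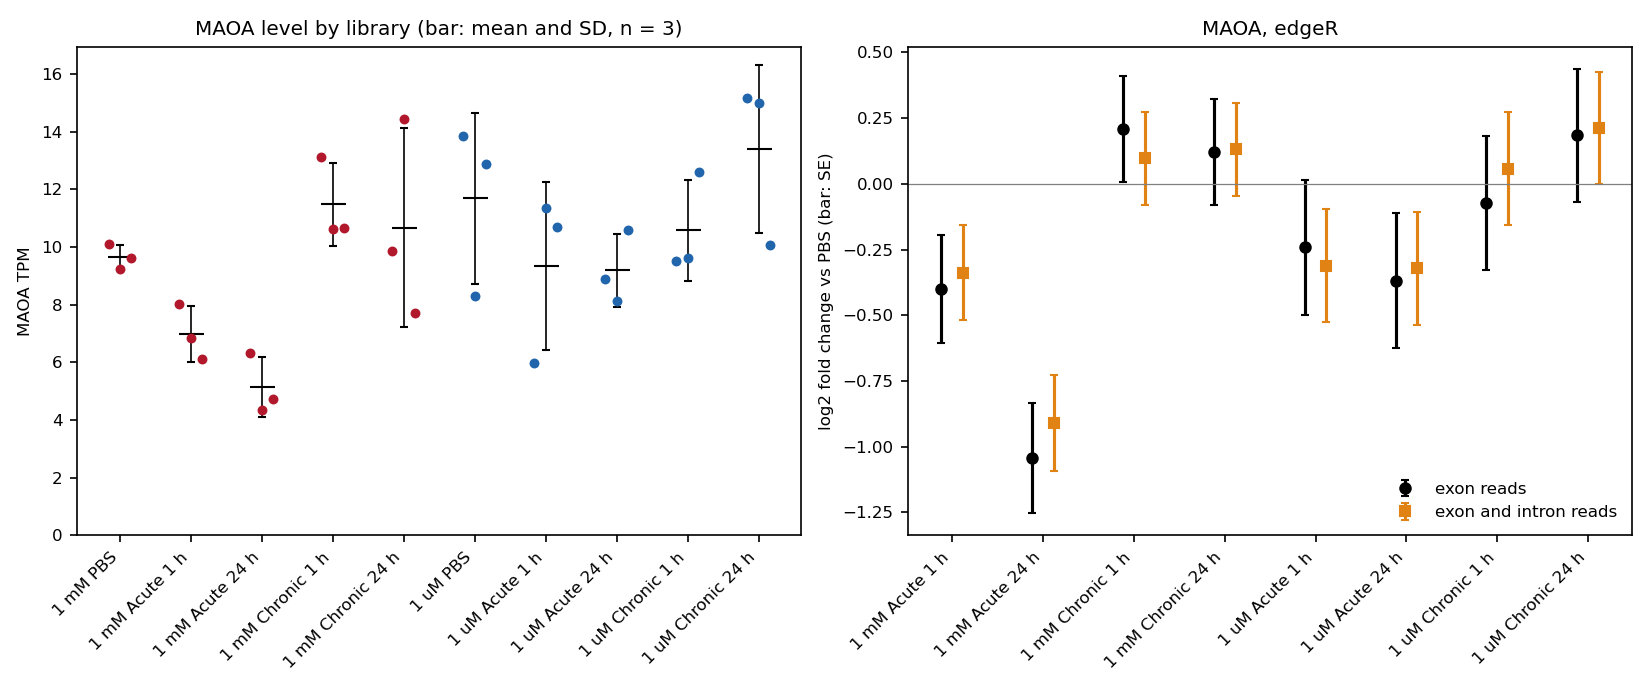
MAOA in the 1 mM and 1 µM experiments by group, as TPM of each library with the mean and SD of 3 libraries, and as log2(fold change) against PBS of the same dose by edgeR with SE, from exon reads (circles) or exon and intron reads (squares). The 3 libraries of 1 mM Acute 24 h, at 4.36 to 6.31, lie below all PBS libraries of that experiment, at 9.23 to 10.1.

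At 1 µM, the PBS libraries of MAOA spread from 8.31 to 13.9, and the lowest and highest of the 12 dosed libraries were 5.99 and 15.2. The log2(fold change) was -0.24 at Acute 1 h, -0.37 at Acute 24 h, -0.07 at Chronic 1 h and 0.18 at Chronic 24 h, with SE of 0.252 to 0.257. In the time course MAOA had a TPM of 8.24, 7.29 and 5.56 in AA and 4.15 to 10.99 in dosed libraries, with changes of -0.10 to 0.41 against AA. In the agonist experiment it had 8.93 to 10.7 in Water, 7.60 to 9.72 with SKF82958 and 6.19 and 9.85 in quinpirole replicates 2 and 3. Its log2(fold change) with quinpirole was -0.29 (SE 0.252), and -0.23 (SE 0.156) without replicate 1.

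MAOB, the monoamine oxidase typical of astrocytes and serotonergic neurons, was most abundant in the time course, with a median TPM of 1.70 against 0.420 in the 1 mM, 0.696 in the 1 µM and 0.998 in the agonist experiment. The AA libraries had 1.61, 2.21 and 1.89, and the 11 dosed libraries ranged from 0.422 to 3.78. Its log2(fold change) against AA lay between -0.07 and 0.14 with SE of 0.555 to 0.649. With SKF82958 it was 1.13 (SE 0.604, adjusted p = 1.00, edgeR), from a TPM of 2.88, 2.10 and 0.875 against 0.671, 1.23 and 0.603 in Water, which overlapped. With quinpirole it was 0.41 (SE 0.709), and 0.15 (SE 0.629) without replicate 1. The summed TPM of the astrocyte markers was 154 to 199 in the time course, 106 to 206 in the 1 mM, 58.3 to 91.1 in the 1 µM and 177 to 215 in the agonist experiment.

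For genes with few exon reads, intron reads were also set against those of PBS in the 1 mM experiment. SLC22A3 had 70, 77 and 67 intron reads in PBS, against 8, 14 and 20 at Acute 1 h and 10, 16 and 22 at Acute 24 h. At Chronic 1 h there were 60, 47 and 59, and at Chronic 24 h 54, 57 and 62. SLC6A2 had 29, 26 and 18 in PBS and 4, 2 and 4 at Acute 1 h. For MAOB they numbered 33, 51 and 27 in PBS and 1, 9 and 4 at Acute 1 h. For all 3 genes, every Acute 1 h and Acute 24 h library lay below every PBS library. On intron reads as counted this was so for 81.8% and 47.0% of all genes with a mean of at least 10 intron reads.

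On total gene reads (exon and intron reads together), 7 tests of the 9 genes against PBS passed at 1 mM by edgeR, all lower. SLC22A3 had a log2(fold change) of -1.70 at Acute 1 h (SE 0.294, adjusted p = 0.000602) and -1.63 at Acute 24 h (SE 0.285, adjusted p = 0.00132). SLC6A2 had -2.19 and -1.97, and MAOB -1.46 and -1.83. MAOA passed at Acute 24 h alone, at -0.91 (SE 0.183, adjusted p = 0.00226). Apart from MAOA, these calls rested on intron reads, since exon reads over the 3 libraries of PBS, Acute 1 h and Acute 24 h numbered 18, 7 and 22 for SLC22A3, 20, 18 and 14 for MAOB and 8, 2 and 0 for SLC6A2. On exon reads the mean TPM of SLC22A3 was 0.473 in PBS and 0.595 at Acute 24 h, and that of MAOB 0.585 in PBS and 0.579 at Acute 1 h, so exon reads did not show these falls. Of all genes, 28.7% were lower on this measure at Acute 1 h and 25.5% at Acute 24 h. From Acute 1 h to Chronic 1 h, SLC22A3 (1.25) and SLC6A2 (1.82) passed as higher, as did 25.3% of all genes. For the difference between doses at Acute 1 h, MAOB (-3.62, SE 1.25) and SLC6A2 (-7.10, SE 1.80) passed as lower at 1 mM, as did 18% of all genes. In 1 µM Acute 1 h replicate 2 there were 67 MAOB and 34 SLC6A2 intron reads and the highest intron share of the 52 libraries, 31.2%. Without it both differences kept their direction and neither passed (MAOB -2.30, adjusted p = 0.207, and SLC6A2 -5.28, adjusted p = 0.0558, edgeR).

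The share of reads in introns was itself lower in the acute libraries, as given above. Intron reads were therefore also scaled to the same total of intron reads in each library (intron CPM). SLC22A3 then had 15.9 to 16.3 intron CPM in PBS and 3.50 to 8.98 at Acute 1 h, and MAOA 14.4 to 16.5 and 3.50 to 10.3, without overlap, as was so in that direction for 42.2% of all genes. SLC18A2 went the other way, with 13.2 to 17.1 intron CPM in PBS and 23.7 to 29.3 at Acute 1 h, again without overlap, as for 21.5% of all genes. Whether these reads come from unspliced RNA or from DNA was not tested.

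**Figure D5:**
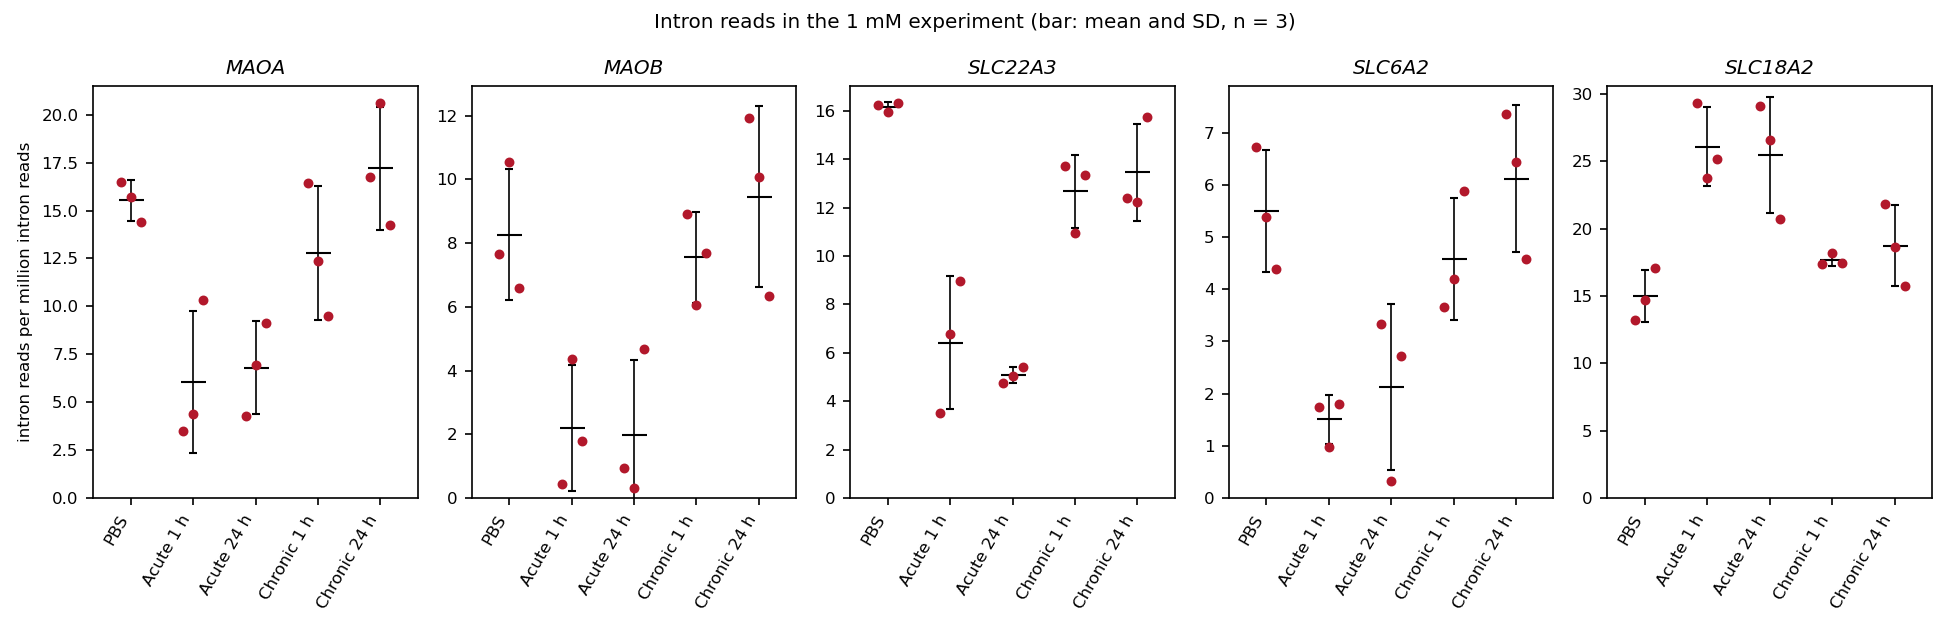
Intron reads of MAOA, MAOB, SLC22A3, SLC6A2 and SLC18A2 in the 5 groups of the 1 mM experiment, scaled to the same total of intron reads in each library (y axes, each with its own scale from 0), 1 point per library with mean and SD. For SLC22A3 the acute libraries lie at 8.98 or below and the PBS libraries at 15.9 to 16.3, whereas for SLC18A2 the acute libraries lie above those of PBS.

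Other genes of the same pathway were described by a list of 18, covering the cofactor of TH, other carriers and enzymes of breakdown. On exon reads, 15 were tested in the 1 mM experiment. At Acute 1 h 1 passed as higher and 1 as lower, against 16% of all genes, and at Acute 24 h 1 as higher, against 15.5%. From Acute 1 h to Chronic 1 h 2 passed as higher and 2 as lower, against 11.3%. At Chronic 1 h and Chronic 24 h 0 passed by edgeR, with 1 at an unadjusted p under 0.05 in each. The median log2(fold change) of the list was 0.14 at Acute 1 h and 0.11 at Acute 24 h, against 0.01 and 0.02 over all genes. At 1 µM 0 of 13 passed in any comparison, with 0 to 2 at an unadjusted p under 0.05. In the time course 1 of 14 passed at 3 Day, against 7.37% of all genes, and 0 in the other comparisons, with 1 to 5 at an unadjusted p under 0.05. With the agonists 0 of 14 passed and 0 had an unadjusted p under 0.05.

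GCH1 encodes the first and rate-limiting enzyme for tetrahydrobiopterin, the cofactor that tyrosine hydroxylase needs, and passed in 3 comparisons. Its TPM was 3.51 to 3.99 in 1 mM PBS, 4.51 to 6.46 at Acute 1 h and 6.28 to 8.83 at Acute 24 h, with no overlap between PBS and either acute group, as was so in that direction for 24.2% of all genes at Acute 1 h and 26.2% at Acute 24 h. The log2(fold change) was 0.62 (SE 0.180, adjusted p = 0.0327) and 0.82 (SE 0.177, adjusted p = 0.0128) by edgeR. At Chronic 1 h the TPM was 3.74 to 4.15, lower than at Acute 1 h (-0.60, SE 0.180, adjusted p = 0.0476, edgeR). At 1 µM GCH1 passed in no comparison, and these changes had the opposite sign. Against PBS they were -1.21 (SE 0.713) at Acute 1 h and -0.92 (SE 0.690) at Acute 24 h. From Acute 1 h to Chronic 1 h the change was 1.92 (SE 0.711, adjusted p = 0.240, edgeR). TH itself did not pass in any of these comparisons.

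SULT1A3, a sulfotransferase that inactivates dopamine, passed in 2 comparisons, lower at 1 mM Acute 1 h than in PBS (-1.39, SE 0.424, adjusted p = 0.0406) and higher at Chronic 1 h than at Acute 1 h (1.61, SE 0.420, adjusted p = 0.0267), both by edgeR. It has a nearly identical copy, SULT1A4, between which reads may be divided, so its values are uncertain. A further 3 genes passed once and were named after their values were seen. They were PCBD1 (-0.47), which takes part in recycling tetrahydrobiopterin, and the serotonin transporter SLC6A4 (1.67, to a mean TPM of 0.372), both from Acute 1 h to Chronic 1 h, and AKR1B1 (0.35 at 3 Day), an aldose reductase. SLC29A4, a plasma membrane monoamine transporter, was the most abundant carrier of the list, at a median of 67.8.

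The genes whose levels most resembled those of TH and MAOA, the only 2 of the 9 with at least 10 exon reads in 27 or more libraries, were sought by Pearson's r of log2(TPM + 1) over 53 libraries, centred on the mean of each experiment, among 19097 genes with a mean TPM of at least 1. The libraries share depth and batch, and r describes these libraries only. For MAOA the genes were GPM6A (r = 0.913), CHRDL1 (0.902) and BCHE (0.895), for TH ARHGEF19 (0.807), DNPH1 (0.805) and AGRN (0.797). Without Quinpirole replicate 1 the r values fell to 0.753 for GPM6A and 0.723 for CHRDL1 with MAOA, and to 0.722 for ARHGEF19 with TH.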

How the data were processed

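The deposited tables of 53 RNA-seq libraries were used. The authors removed adaptors and bases of low quality, ran the RNA-seq tool of CLC Genomics Workbench with GRCh38 (hg38 in the submitters' processing notes) and deposited, for each library, counts of reads on the exons, junctions and introns of a gene. They also deposited TPM, for which they divided total exon reads by exon length. Total rather than unique exon reads were used, so reads that fit several genes can count. Per the labels, replicates are separate samples of a group, and p-values measure the spread between them.

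Tests of exon reads used R 4.3.3 and edgeR 4.0.16 (filterByExpr with a minimum count of 10 and a minimum total of 15, TMM, glmQLFit and glmQLFTest), with all groups of an experiment in one fit and Benjamini-Hochberg adjustment over all genes tested. The interaction of dose and regimen was fitted on both dose experiments together. The SE was taken as |log2(fold change)| over the root of the F statistic. On simulated data for 1 mM Acute 1 h against PBS, 200 of 200 genes changed by 2 on the log2 scale were recovered among 17525 genes, with 7 false calls. That change is larger in size than any estimate for the 5 genes tested at 1 mM, which ran from -1.07 to 0.66. Recovery of smaller changes was not tested, and none was given separately for genes with as few exon reads as most of the 9. The simulation therefore does not tell how often changes in these genes would be missed. Python 3.11.15 with numpy 2.4.6, pandas 2.3.3 and matplotlib 3.10.9 made the tables and figures.

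The alternatives were total gene reads, size factors of DESeq2 1.42.0, its Wald test, no low-count filter, only the groups compared, the replicate number as a block, each library left out in turn, the DEG rule and, for likeness, Spearman's rank correlation. Total gene reads without 1 mM Acute 24 h replicate 1, 1 µM Acute 1 h replicate 2 or Quinpirole replicate 1, and likeness without the latter, were added after seeing the data. The 9 genes and the lists of pathway genes and markers were chosen with earlier results of these data known. All 9 genes are described, those that passed with full statistics, pathway genes by counts with names for those that passed in at least 2 comparisons, and for likeness the 3 genes with the highest r.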

Additional observations from a re-analysis of the deposited data

How the results depend on the processing

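The fall of MAOA at 1 mM Acute 24 h passed in 15 of 15 fits without 1 library (-1.13 to -0.996, adjusted p 0.00251 to 0.0357) and under every other setting but only the groups compared, where 1 test also passed, but at Acute 1 h. Tests passed against PBS at 1 mM numbered 1 and rose to 7 with total gene reads, also without Acute 24 h replicate 1. For Chronic 1 h against Acute 1 h the count rose from 0 to 1 by DESeq2 and with only the groups compared (MAOA in both), to 2 with total gene reads, to 4 with total gene reads without 1 mM Acute 24 h replicate 1, and to 0 or 1 without 1 library, where 1 passed without 1 mM Acute 24 h replicate 1 and 1 mM Chronic 24 h replicates 2 or 3. For differences between doses it rose from 0 to 2 with total gene reads (MAOB and SLC6A2 at Acute 1 h) and to 0 again without 1 µM Acute 1 h replicate 2, and against AA from 0 to 3 (TH) without the filter. Why was not tested, except that total gene reads add introns.

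For TH and MAOA, changes of sign were confined to tests that had not passed. With total gene reads, TH was 0.23 at 1 mM Acute 1 h and 0.10 at 1 µM Chronic 1 h, and MAOA 0.0579 at 1 µM Chronic 1 h, 0.51 with quinpirole (-0.17 without replicate 1) and 0.10 for the difference between doses at Acute 1 h. Without 1 µM Acute 1 h replicate 2 as well, MAOA was 0.0540 at 1 µM Chronic 1 h and 0.20 for the difference between doses at Acute 1 h. With total gene reads without 1 mM Acute 24 h replicate 1, TH was 0.23 at 1 mM Acute 1 h and 0.10 at Acute 24 h. With no filter TH was 0.0136 at 1 µM Chronic 1 h. Without 1 library, TH ranged from -0.40 to 0.14 at 1 mM Acute 1 h, at 1 µM from -0.72 to 0.85 (Acute 1 h), -0.10 to 0.13 (Acute 24 h), -0.23 to 0.23 (Chronic 1 h), -0.16 to 0.27 (Chronic 24 h) and -0.85 to 0.73 (Chronic 1 h against Acute 1 h), from -0.89 to 0.66 for the dose difference at Acute 1 h and from -0.26 to 0.39 from 3 Day to 5 Day. MAOA ranged from -0.18 to 0.31 at 1 mM Chronic 24 h, -0.13 to 0.0470 at 1 µM Chronic 1 h, -0.0495 to 0.51 from 1 µM Acute 1 h to Chronic 1 h, -0.37 to 0.17 and -0.35 to 0.13 for the dose difference at Acute 1 h and Chronic 24 h, and -0.31 to 0.10 at 3 Day.

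Of the 3 genes most like TH, 0 remained with Spearman's rank correlation and 1 without Quinpirole replicate 1. Among the 3 most like MAOA, HOPX entered in place of GPM6A with Spearman's rank correlation. Without Quinpirole replicate 1, CRB1 entered in place of BCHE. Replicate numbers did not clearly pair the libraries, with most signs of pairing at 1 µM. Correlations of same-numbered libraries were -0.30 to 0.45 at 1 µM and -0.19 to 0.17 elsewhere. They were higher with their own number in 9, 11, 5 and 4 of 15, 15, 14 and 9 libraries of the 1 mM, 1 µM, time course and agonist experiments. At 1 µM the mitochondrial share of TPM was highest in replicate 2 of PBS (42.7%), Acute 1 h (44.8%) and Chronic 1 h (44.2%). It was highest in replicate 1 of Acute 24 h (38.0%) and replicate 3 of Chronic 24 h (27.6%). With the replicate number as a block, MAOA at 1 mM Acute 24 h was -1.05 (adjusted p = 0.0145, edgeR) and 1 test passed in all, while all genes passed fell from 2755 to 1970 in that comparison, from 118 to 65 at 1 mM Chronic 24 h, from 651 to 427 at 2 Day and from 274 to 161 at 5 Day. With 3 exon reads worth up to 0.695 TPM (DBH), depth limits every gene here but MAOA and TH.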
